A study of Bos taurus with 6 samples.

Results

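The genes described here are 10 members of the nectin, afadin and cadherin junctions of the bovine testis, together with the polarity and gap junction genes that work beside them. They were chosen by name from the gene table of the series, and all 10 were found among its 47249 genes. The members are NECTIN1, NECTIN2 and NECTIN3 (the nectins), AFDN (afadin), CADM1 (a nectin-like molecule), PARD3 and PARD6B (polarity scaffolds), CDH1 and CDH2 (E-cadherin and N-cadherin) and GJA1 (connexin 43). Of these, 9 passed the filter on low values, an FPKM of 1 or more in 3 or more of the 6 libraries, and CDH1 did not.

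The tissue was whole testis of untreated Wandong cattle, taken from 3 calves (immature, 3 months old) and 3 bulls (mature, 3 years old), and each animal gave 1 library of total RNA without ribosomal RNA. The deposited values are FPKM, that is, fragments scaled to the length of the transcript and to the mapped fragments of the library, so levels can be set side by side between genes. No read counts per gene were given with them, so the number of fragments behind a value is not known exactly, though the paper lists the clean reads of each library. Testis tissue holds several cell types, and fewer cells of a type cannot be told apart from less RNA per cell in such samples. The sums of FPKM over all genes were 1066184 and 1098715 in calf 1 and calf 2, 587066 in calf 3 and 732130 to 776839 in the bulls.

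The library labelled calf 3 stood apart from calf 1 and calf 2. Its value was 4-fold or more away from the mean of the other two calves, on the log2(FPKM + 1) scale, in 1969 of the 18115 genes tested (10.9%), whereas 72 (0.397%) differed that much between calf 1 and calf 2. In calf 3, the table gives 0 for the Sertoli cell markers GATA4, WT1 and FSHR. The summed FPKM of 6 Leydig cell markers was 0.502 in calf 3, against 1406 in calf 1, 1141 in calf 2 and 1465 to 2738 in the bulls. All 18 markers of oligodendrocytes, astrocytes and neurons were highest in calf 3, with a summed FPKM of 13017 for oligodendrocytes against 19.7 to 29.4 in the other libraries. The values of calf 3 therefore go against its label, and the fold changes of the members below are given with and without it. In calf 1 and calf 2 the testis label held, with summed Sertoli cell markers of 1833 and 1546, and the bulls alone had high spermatid markers, with sums of 13079 to 14882.

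Nectins are immunoglobulin-like adhesion molecules that pair across neighbouring cells, and inside the cell they are tied to actin by afadin. In the seminiferous tubule, the best known pair joins nectin-2 on the Sertoli cell to nectin-3 on the head of the elongating spermatid, at an actin-rich junction called the apical ectoplasmic specialization. Cadherins build the classical adherens junctions through catenins, the PAR proteins set up the polarity of the junction, and connexins form channels that join the cytoplasm of coupled cells.

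In the mature testis, PARD3 was higher, NECTIN3, as the sum of all its transcripts, rose and CDH2 fell once calf 3 was left out, and the other tested members did not pass both thresholds. A gene was called when its adjusted p from limma was below 0.05 and its fold change was at least 2, that is, at least 1 in size on the log2 scale (bull minus calf). With all libraries, 1 of the 9 members was called higher (11.1%) and 0 were called lower, beside 35.7% and 9.61% of all genes tested. At an unadjusted limma p below 0.05, 2 members were higher and 1, CDH2, was lower. The share of all genes at that threshold was not counted, but all called genes pass it, so it is at least 35.7% and 9.61%. Without calf 3, 2 members were called higher (22.2%) and 1 lower (11.1%), beside 37.9% and 13.6% of all genes. At that size the counts of members do not stand above the background of this comparison. The median log2 fold change of the members was 0.16 with all libraries and 0.29 without calf 3, while that of all genes tested was 0.43 in both cases.

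Calf and bull values were fully separate in 4 of the 9 members tested (44.4%), beside 67.4% of all genes. Without calf 3 this held for 7 of the 9 (77.8%), beside 84.4% of all genes. In all 10 members the value of calf 3 lay outside the range of calf 1 and calf 2. The share of all genes where this holds was not counted, so no trait of the members is read from it. The value of calf 3 was the highest of all libraries in AFDN, NECTIN1, NECTIN3 and GJA1, and the lowest of all in NECTIN2, CADM1, PARD6B and CDH1.

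**Figure D1:**
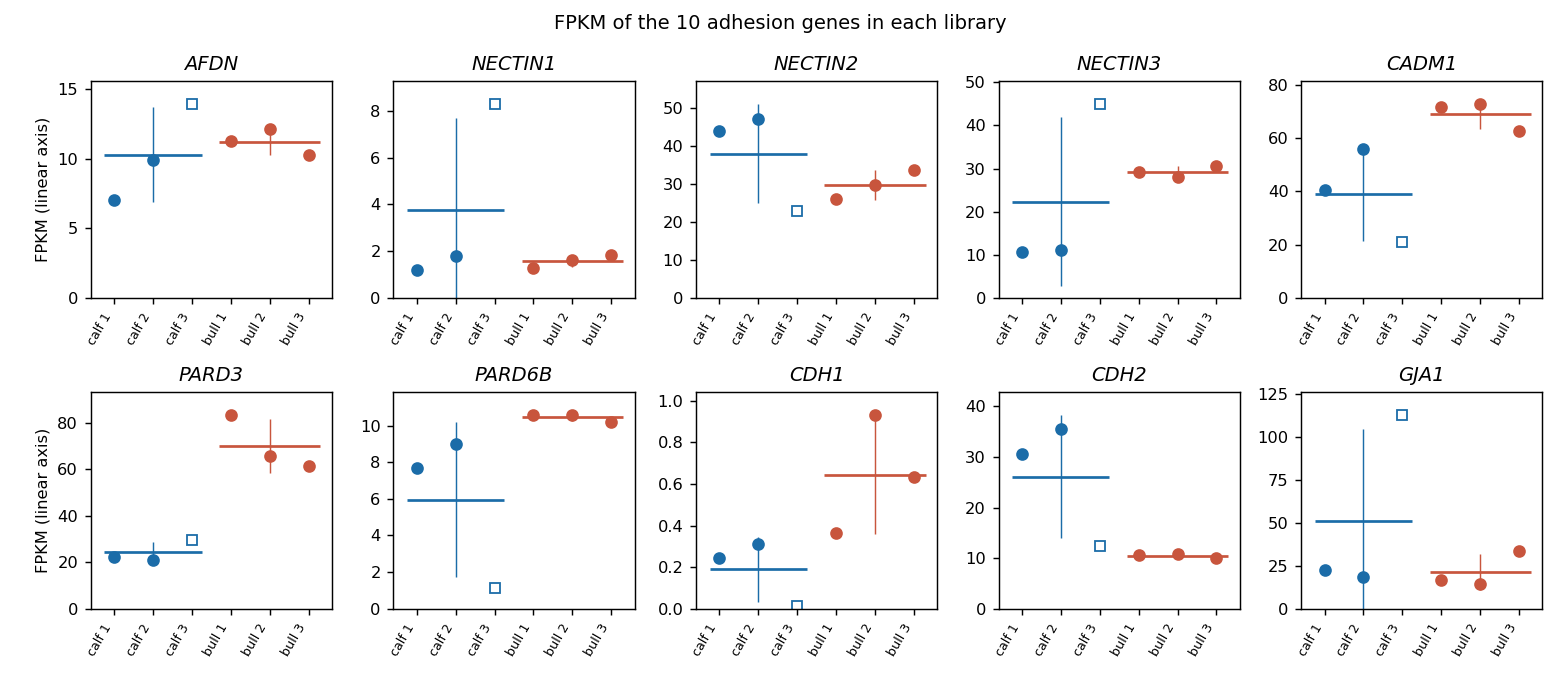
FPKM (linear axes, each starting at 0) of the 10 adhesion genes in each library, with calves in blue, bulls in red and calf 3 as an open square. Horizontal lines are group means and vertical lines are ± 1 SD (n = 3, cut at 0). In PARD3 the 3 bulls lie between 61.4 and 83.4 and all calves at or below 29.4, whereas in GJA1 calf 3 reaches 113 and the calves' spread covers all bulls.

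The polarity scaffold PARD3 gave the clearest difference. PARD3 (ENSBTAG00000014991, chromosome 13, 18484975 to 19062784), which organises the PAR complex at forming junctions, measured 22.3, 21.1 and 29.4 FPKM in the calves, in the order of their numbers, and 83.4, 65.8 and 61.4 FPKM in the bulls, a format kept below. Every bull lay above every calf, and calf 3 lay close to the other two calves. The means were 24.3 ± 4.48 FPKM in calves and 70.2 ± 11.6 FPKM in bulls (SD, n = 3 each). PARD3 rose by 1.50 ± 0.20 on the log2 scale (SE, 95% interval 1.0 to 1.99, adjusted p = 0.00124). Without calf 3 the rise was 1.64 ± 0.15 (adjusted p = 0.000142). Relative to the median gene, the log2 fold change of PARD3 was 1.07 with all libraries and 1.21 without calf 3. After quantile normalization, which moved the median of all genes to -0.26, the fold change was 0.72 (adjusted p = 0.0205) and PARD3 was not called, and relative to that median it was 0.97.

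PARD6B (ENSBTAG00000021601, chromosome 13, 78706958 to 78721688) encodes a partner of PARD3 and of atypical protein kinase C. It measured 7.70, 9.01 and 1.11 FPKM in the calves and 10.6, 10.6 and 10.2 FPKM in the bulls. The bulls lay slightly above calf 1 and calf 2, and calf 3 lay far below all others. The fold change was 1.01 ± 0.60 on the log2 scale (95% interval -0.47 to 2.49, adjusted p = 0.204). Without calf 3 it was 0.29 ± 0.12 (95% interval -0.00 to 0.59, adjusted p = 0.0677), and it turned to -0.23 under quantile normalization.

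The 2 polarity genes were also compared within each library. The log2 ratio of PARD6B to PARD3, each as FPKM + 1, was -1.42 and -1.15 in calf 1 and calf 2, -3.85 in calf 3, and -2.87, -2.53 and -2.48 in the bulls. The ratio was lower in the bulls than in calf 1 and calf 2, and lowest in calf 3. With all libraries the difference was -0.49 (exact permutation test over 20 splits, two-sided p = 0.5). Without calf 3 the difference was -1.34 with an exact p = 0.1, which is the smallest that either set of libraries allows.

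The nectins differed from one another. NECTIN3 (ENSBTAG00000013769, chromosome 1, 55893357 to 56089185), the nectin of spermatids, measured 10.8, 11.2 and 44.9 FPKM in the calves and 29.2, 28.0 and 30.5 FPKM in the bulls. The bulls were close to one another and well above calf 1 and calf 2, while calf 3 was the highest of all. With all libraries the fold change was 0.69 ± 0.54 on the log2 scale (95% interval -0.64 to 2.02, adjusted p = 0.322) and NECTIN3 was not called. Without calf 3 NECTIN3 rose by 1.33 ± 0.10 (95% interval 1.09 to 1.58, adjusted p = 6.64e-05), or 0.90 relative to the median gene, but with Ensembl transcripts only it was -0.59 (adjusted p = 0.0152). Under quantile normalization without calf 3, the fold change was 0.68 and was not called.

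NECTIN2 (ENSBTAG00000015318, chromosome 18, 52582085 to 52615556), the nectin of Sertoli cells, measured 43.7, 46.9 and 22.9 FPKM in the calves and 25.9, 29.6 and 33.7 FPKM in the bulls. Calf 1 and calf 2 lay above every bull, and calf 3 lay below every bull. The fold change was -0.28 ± 0.30 on the log2 scale (95% interval -1.02 to 0.46, adjusted p = 0.461). Without calf 3 it was -0.60 ± 0.13 (95% interval -0.92 to -0.27, adjusted p = 0.00676), which passed the p threshold but not that of fold change. Under quantile normalization it was called lower, at -1.01 with all libraries (adjusted p = 0.0369) and -1.37 without calf 3.

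NECTIN1 (ENSBTAG00000015939, chromosome 15, 30211169 to 30282836), which pairs with nectin-3 in several epithelia and at synapses, was the lowest of the nectins. It measured 1.18, 1.82 and 8.27 FPKM in the calves and 1.298, 1.61 and 1.83 FPKM in the bulls. Apart from calf 3, the values of calves and bulls overlapped. On the log2 scale the fold change was -0.58 ± 0.55 (95% interval -1.93 to 0.76, adjusted p = 0.403), and without calf 3 it was 0.05 ± 0.18 (95% interval -0.38 to 0.49, adjusted p = 0.795). It was called lower, at -1.47, under quantile normalization of all libraries (adjusted p = 0.0469). The NECTIN1 value also holds an antisense transcript named NECTIN1-AS1 and another transcript assembled from the reads, NECTIN1-OT1. Whether strand was used in the counting is not stated. NECTIN1-OT1 measured 0.217, 0.328 and 1.59 FPKM in the calves and 0.0362, 0.0291 and 0.272 FPKM in the bulls. NECTIN1-AS1 was at most 0.00662 FPKM in the calves and measured 0.407, 0.701 and 0.371 FPKM in the bulls. The Ensembl transcripts of NECTIN1 alone summed to 0.955, 1.49 and 6.69 FPKM in the calves and 0.855, 0.878 and 1.19 FPKM in the bulls.

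The 3 nectins were also added up within each library. With assembled transcripts included and FPKM as deposited, the sum was 55.7, 59.9 and 76.1 FPKM in the calves and 56.4, 59.2 and 66.1 FPKM in the bulls. NECTIN2 made up 78.5% and 78.2% of this sum in calf 1 and calf 2, 30.2% in calf 3, and 46.0%, 49.9% and 51.0% in the bulls. NECTIN3 made up 19.3% and 18.8% in calf 1 and calf 2, 59.0% in calf 3, and 51.7%, 47.4% and 46.2% in the bulls. In the 2 calves that kept testis markers NECTIN2 thus exceeded NECTIN3 about 4.06 and 4.17 times, and in the bulls both stood near the same level. That shift rested on NECTIN3 transcripts assembled from the reads. With Ensembl transcripts only, NECTIN2 was 7.67 and 7.997 times NECTIN3 in calf 1 and calf 2, 0.797 times in calf 3, and 6.98, 10.1 and 8.44 times in the bulls, so the bulls lay on both sides of the 2 calves.

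On the scale of log2(FPKM + 1), the log2 ratio of NECTIN2 to NECTIN3 was 1.93 and 1.97 in calf 1 and calf 2, -0.94 in calf 3, and -0.16, 0.07 and 0.14 in the bulls. With all libraries the difference was -0.97 (exact permutation test, two-sided p = 0.4), and without calf 3 it was -1.93 (exact p = 0.1). With Ensembl transcripts only, the difference was 1.02 (exact p = 0.6), and -0.01 without calf 3 (exact p = 0.9). The log2 ratio of NECTIN1 to NECTIN3 was -2.43, -2.12 and -2.31 in the calves and -3.71, -3.48 and -3.48 in the bulls. For this pair calf 3 lay between the other two calves, all bulls lay below all calves, and the difference was -1.27, or -1.28 without calf 3 (exact p = 0.1 in both). As plain ratios of FPKM the values were 0.109, 0.161 and 0.184 in the calves, with calf 3 the highest, and 0.0445, 0.0573 and 0.0600 in the bulls. With Ensembl transcripts only, the log2 ratios of FPKM + 1 were -1.78, -1.46 and -1.95 in the calves and -1.34, -1.06 and -1.19 in the bulls. All bulls then lay above all calves, and the difference turned to 0.53, or 0.42 without calf 3 (exact p = 0.1 in both). Over the 4 pairs compared, the Benjamini-Hochberg adjusted p could not fall below the raw minimum of 0.1, so none of these ratios could pass a threshold of 0.05.

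**Figure D2:**
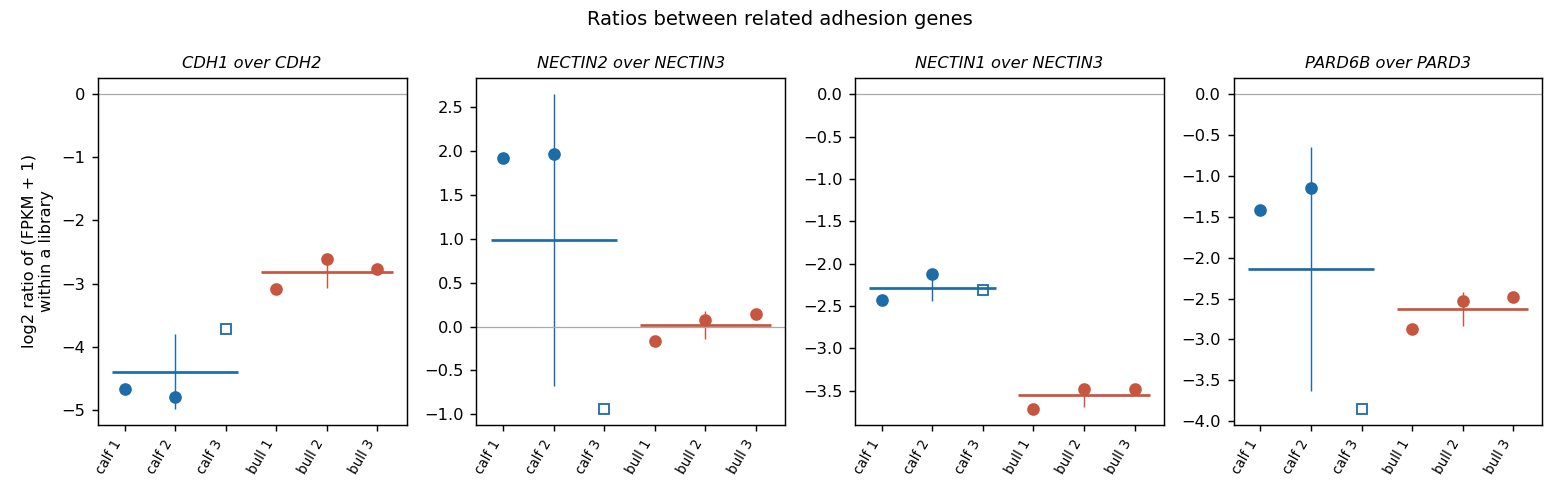
Log2 ratio of FPKM + 1 between related adhesion genes within each library, with calves in blue, bulls in red and calf 3 as an open square. Lines are group means ± 1 SD (n = 3). The NECTIN2 to NECTIN3 ratio is 1.93 and 1.97 in calf 1 and calf 2 and near 0 in the bulls, and calf 3 leaves the other calves in that ratio and in PARD6B to PARD3. The plotted gene values include transcripts assembled from the reads.

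AFDN (ENSBTAG00000005557, chromosome 9, 102278808 to 102392284), the actin-binding adaptor shared by all nectins, was called in neither set of libraries. It measured 7.06, 9.93 and 13.9 FPKM in the calves and 11.3, 12.1 and 10.3 FPKM in the bulls. The bulls lay just above calf 1 and calf 2, and calf 3 lay above the bulls. On the log2 scale the fold change was 0.16 ± 0.25 (95% interval -0.47 to 0.78, adjusted p = 0.628), and without calf 3 it was 0.38 ± 0.17 (95% interval -0.03 to 0.79, adjusted p = 0.0828). The intervals leave room for a change of up to 0.79. The direction of AFDN turned under quantile normalization, to -0.37 with all libraries and -0.15 without calf 3.

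CADM1 (ENSBTAG00000000977, chromosome 15, 25721022 to 26071036), a nectin-like molecule found on spermatogenic cells, was among the most abundant members. It measured 40.4, 55.9 and 20.9 FPKM in the calves and 71.6, 72.6 and 62.7 FPKM in the bulls. Every bull lay above every calf, and calf 3 was the lowest library. The fold change was 0.91 ± 0.36 on the log2 scale (95% interval 0.03 to 1.79, adjusted p = 0.0755). Without calf 3 it was 0.52 ± 0.16 (adjusted p = 0.0232), below the fold threshold and 0.09 relative to the median gene. Scaling to TPM gave 1.13 (adjusted p = 0.00389) and leaving out calf 2 gave 1.21 (adjusted p = 0.0268), both of which were called. Without calf 3, scaling to TPM gave 1.03 (adjusted p = 0.000796), which was called, and quantile normalization gave -0.29.

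The 2 classical cadherins lay at opposite ends of the levels. CDH2 (ENSBTAG00000021190, chromosome 24, 28655047 to 28904115), the N-cadherin of Sertoli and germ cells, measured 30.5, 35.5 and 12.3 FPKM in the calves and 10.6, 10.8 and 10.1 FPKM in the bulls. All calves lay above all bulls, with calf 3 much closer to the bulls than to the other calves. The fold change was -1.11 ± 0.39 on the log2 scale (95% interval -2.07 to -0.15, adjusted p = 0.0538), which narrowly missed the p threshold. Without calf 3, CDH2 fell by 1.56 on the log2 scale (SE 0.11, 95% interval -1.84 to -1.28, adjusted p = 5.93e-05), and the bull mean was 0.318 times the mean of calf 1 and calf 2. Relative to the median gene the fold changes were -1.54 and -1.99.

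Sertoli cell markers moved with CDH2. Over the 9 markers of the list, the summed FPKM was 1833 and 1546 in calf 1 and calf 2, 445 in calf 3 and 267 to 295 in the bulls. In the sum of calf 3, CLDN11, which oligodendrocytes also express, held 429 FPKM. WT1, a transcription factor of Sertoli cells, measured 17.7 and 25.4 FPKM in calf 1 and calf 2 and 7.70, 8.30 and 7.002 FPKM in the bulls, so that its bull mean was 0.356 times that of the 2 calves. The same ratio was 0.432 for SOX9, 0.218 for FSHR, 0.213 for GATA4, 0.104 for INHA and 0.00804 for AMH, which encodes the anti-Mullerian hormone, so that 6 of the 9 markers lay at or below 0.432. Higher ratios were found for DMRT1 (1.36) and CLDN11 (7.67), and that of CDH2 was 0.318. Their part in the CDH2 result was not tested.

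CDH1 (ENSBTAG00000015991, chromosome 18, 36046665 to 36119368), the E-cadherin of epithelia and of some spermatogonia, was the least abundant member. It measured 0.242, 0.313 and 0.0133 FPKM in the calves and 0.363, 0.931 and 0.634 FPKM in the bulls, and no library reached 1 FPKM. The 3 bulls lay above the 3 calves, but bull 1 lay close to calf 2, and the counting error at such levels is unknown. The log2 ratio of CDH1 to CDH2 was -4.67, -4.80 and -3.72 in the calves and -3.09, -2.61 and -2.77 in the bulls. The difference was 1.57 (exact permutation test, two-sided p = 0.1), and 1.91 without calf 3 (exact p = 0.1). The 1 added to each FPKM weighs heavily here: as a plain ratio, CDH2 exceeded CDH1 by 126 and 113 times in calf 1 and calf 2, 925 times in calf 3 and 29.3, 11.6 and 16.0 times in the bulls, so that calf 3 moved from the side of the bulls to the far side of the calves. The summed FPKM of 6 markers of epithelium outside the tubules was 24.3, 11.8 and 2.14 in the calves and 95.3 to 110 in the bulls. Most of the sum in the bulls was EPCAM, at 4.36, 5.96 and 1.85 FPKM in the calves and 84.0 to 102.0 FPKM in the bulls, while KRT19, at 16.3, 2.20 and 0 FPKM in the calves, was at most 0.742 FPKM in the bulls. KRT8, KRT18 and CRISP1 were at most 6.31, 3.93 and 1.47 FPKM in any bull, and KRT5 was at most 0.206 FPKM. The part of these markers in the CDH1 values was not tested.

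GJA1 (ENSBTAG00000001835, chromosome 9, 29748660 to 29761667), the main connexin of Sertoli and Leydig cells and also of astrocytes, was among the members highest in calf 3. It measured 22.5, 18.7 and 113 FPKM in the calves and 16.9, 14.4 and 33.6 FPKM in the bulls. Calf 3 was 5.48 times the mean of calf 1 and calf 2, and among the bulls, bull 3 was well above the other two. With all libraries the fold change was -0.82 ± 0.73 on the log2 scale (95% interval -2.62 to 0.97, adjusted p = 0.377). Without calf 3 it was -0.02 ± 0.35 (95% interval -0.87 to 0.83, adjusted p = 0.958), an interval that leaves room for a change of 0.87 in size either way.

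Markers of other cells moved with GJA1 in both libraries. The summed FPKM of 5 astrocyte markers was 127 and 148 in calf 1 and calf 2, 2696 in calf 3 and 59.8 to 69.5 in the bulls. In bull 3, STAR, which carries cholesterol into the mitochondria of Leydig cells, measured 266 FPKM against 73.7 in bull 1 and 30.0 in bull 2. CYP11A1, the first enzyme of steroid synthesis, measured 34.7 FPKM in bull 3 against 3.09 and 4.24 in bull 1 and bull 2. Summed over the Leydig list, bull 1, bull 2 and bull 3 reached 2162, 1465 and 2738 FPKM, mostly from INSL3. Their part in the GJA1 values was not tested.

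**Figure D3:**
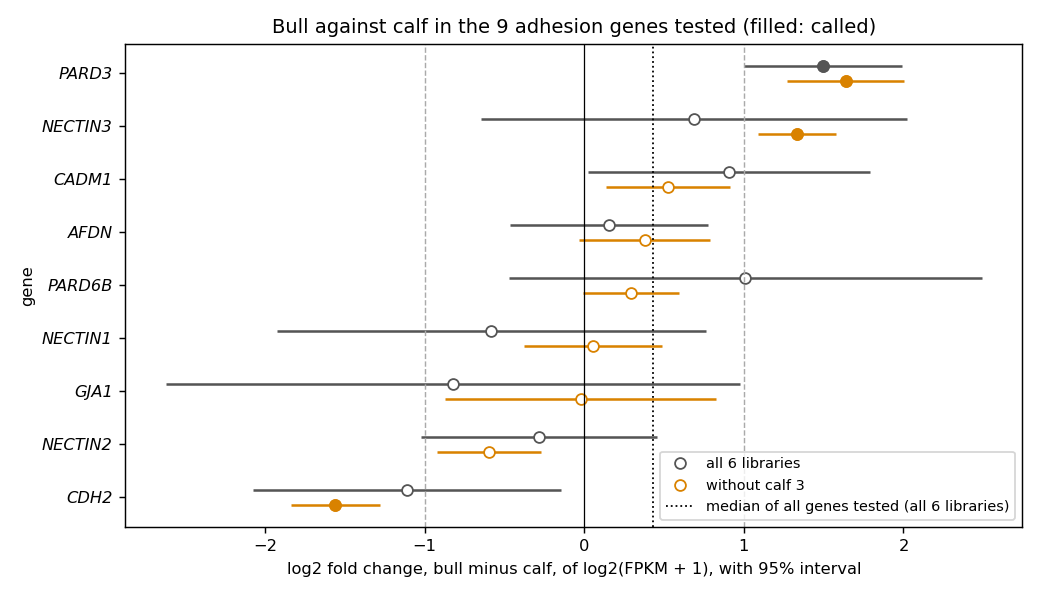
Log2 fold change (bull minus calf, of log2(FPKM + 1)) of the 9 adhesion genes tested, with 95% intervals, in grey for all 6 libraries and in orange without calf 3. Filled points were called, dashed lines mark the fold threshold and the dotted line marks the median of all genes at 0.43. PARD3 is called in both fits, and NECTIN3 (1.33) and CDH2 (-1.56) only without calf 3. Leaving calf 3 out narrows every interval.

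The order of the levels differed between the groups. By mean FPKM, calf 1 and calf 2 were led by CADM1 (48.2) and NECTIN2 (45.3), whose ranges overlapped, followed by CDH2 (33.0), which was apart from both neighbours. Next came PARD3 (21.7) and GJA1 (20.6), which overlapped, then NECTIN3 (11.0), then AFDN (8.50) and PARD6B (8.36), which overlapped, then NECTIN1 (1.50) and CDH1 (0.278). The bulls were led by PARD3 (70.2) and CADM1 (69.0), which overlapped.

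In the bulls, NECTIN2 (29.7), NECTIN3 (29.3) and GJA1 (21.6) then overlapped with one another, as did AFDN (11.2), CDH2 (10.5) and PARD6B (10.4). NECTIN1 (1.58) and CDH1 (0.643) were again the lowest and lay apart. CADM1 lay above PARD3 in bull 2 and bull 3, and below it in bull 1. In calf 3 the order was led by GJA1 (113) and NECTIN3 (44.9). Summed over all 10 members, the FPKM as deposited was 186, 210 and 267 in the calves and 261, 246 and 255 in the bulls.

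The value of a gene in the table equals the sum of its transcripts, and the 10 members had 45 transcripts, 8 of them assembled from the reads and the others from Ensembl. Of these, 22 passed the filter on low values. With all libraries, 6 of the 22 were called higher in bulls (27.3%) and 1 lower (4.55%), beside 34.8% and 9.37% of the 23212 transcripts tested. Without calf 3, 7 were called higher (31.8%) and 3 lower (13.6%), beside 36.1% and 13.1%. Of the transcripts called higher, 5 were shared by both fits. Transcripts of a gene share most of their exons, and how the fragments were divided among them is an estimate whose error is not given.

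The rise of NECTIN3 lay in transcripts assembled from the reads. The transcript TCONS_00003578 (chromosome 1, 55893357 to 56029260) measured 3.21, 3.40 and 10.4 FPKM in the calves and 18.5, 20.9 and 19.2 FPKM in the bulls, and rose by 1.78 ± 0.41 on the log2 scale (adjusted p = 0.0125, and 2.25 without calf 3, adjusted p = 6.68e-05). Without bull 2 its adjusted p was 0.0509. TCONS_00003579 (55893371 to 56029260) measured 0.805, 0.119 and 0.367 FPKM in the calves and 3.92, 3.47 and 3.40 FPKM in the bulls, and rose by 1.71 ± 0.22 (adjusted p = 0.00103, and 1.69 without calf 3, adjusted p = 0.00213). In both, every bull lay above every calf, calf 3 included.

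The Ensembl transcript NECTIN3-202 (55893616 to 56029260) went the other way. It measured 5.62, 5.74 and 28.6 FPKM in the calves and 3.45, 2.83 and 3.86 FPKM in the bulls, with a fold change of -1.33 ± 0.61 (adjusted p = 0.116) and of -0.62 ± 0.16 without calf 3 (adjusted p = 0.0203), neither of which was called. Every calf lay above every bull. The Ensembl transcripts held 53.0%, 52.2% and 64.2% of the NECTIN3 value in the calves and 12.7%, 10.4% and 13.1% in the bulls. With Ensembl transcripts only, the NECTIN3 fold change was -1.30 (adjusted p = 0.129), and -0.59 without calf 3 (adjusted p = 0.0152), so the direction for this gene depended on the assembled transcripts.

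Most of the PARD3 value came from 1 transcript. PARD3-202 (chromosome 13, 18486577 to 19062784) measured 17.3, 18.4 and 22.4 FPKM in the calves and 70.2, 51.0 and 49.3 FPKM in the bulls, and rose by 1.49 ± 0.21 on the log2 scale (adjusted p = 0.00147, and 1.60 without calf 3, adjusted p = 0.000829). PARD3-204 (18565822 to 18888170), which starts and ends inside the gene, measured 0.138, 0.230 and 0.271 FPKM in the calves and 6.04, 6.19 and 5.09 FPKM in the bulls. The calves were all near the bottom of the scale and the bulls were close together. PARD3-204 rose by 2.48 ± 0.17 (adjusted p = 8.12e-05, and 2.51 without calf 3, adjusted p = 0.000141), and its share of the gene went from 0.618%, 1.09% and 0.920% in the calves to 7.24%, 9.40% and 8.29% in the bulls. PARD3-210 was called at 1.03 with all libraries (adjusted p = 0.0103) and missed the fold threshold at 0.97 without calf 3, at 0.97 without calf 2 and at 0.84 without bull 2, while PARD3-203 was called only without calf 3, at 1.22.

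In NECTIN2 the 2 main transcripts differed. NECTIN2-201 (chromosome 18, 52582085 to 52606376) measured 17.6, 16.9 and 19.6 FPKM in the calves and 5.86, 7.16 and 10.1 FPKM in the bulls. Every calf lay above every bull, and calf 3 lay with the other calves. NECTIN2-201 fell by 1.15 on the log2 scale (SE 0.22, adjusted p = 0.00606), or by 1.09 without calf 3 (adjusted p = 0.00803). The fold change of NECTIN2-201 was -0.98 with scaling to TPM, -0.81 with upper quartile scaling and -0.99 without bull 1, and it was not called in these.

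NECTIN2-202 (52582085 to 52615556) measured 19.3, 23.0 and 2.54 FPKM in the calves and 15.7, 19.9 and 19.6 FPKM in the bulls, so that calf 3 alone was low. Its fold change was 0.69 ± 0.74 (adjusted p = 0.472), and -0.19 ± 0.15 without calf 3. NECTIN2-204 was called lower only without calf 3, at -1.09 (adjusted p = 0.00524).

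**Figure D4:**
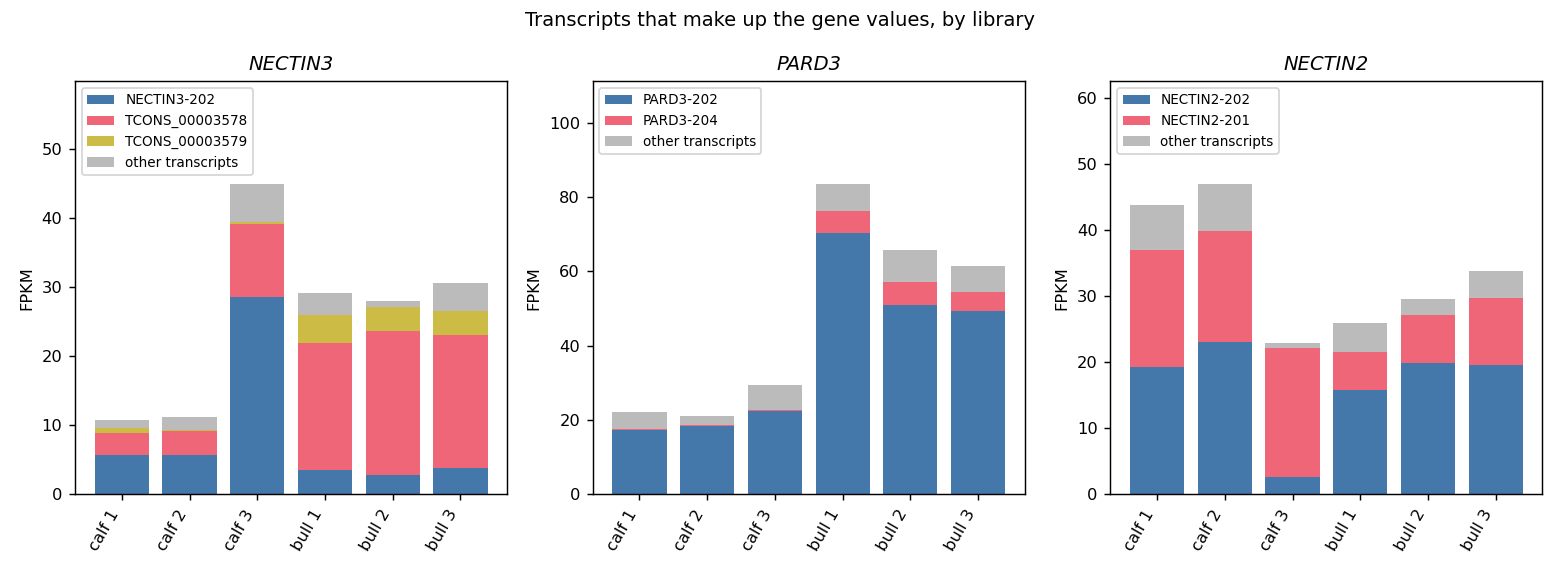
Stacked bars of FPKM by library for the transcripts that make up NECTIN3, PARD3 and NECTIN2, with the remaining transcripts in grey (linear axes from 0). In NECTIN3, the assembled TCONS_00003578 is the largest part in the bulls (18.5 to 20.9) and NECTIN3-202 the largest in the calves, most of all in calf 3 (28.6). PARD3-204 is visible only in the bulls, and NECTIN2-202 shrinks to 2.54 in calf 3.

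Of the 4 transcripts of AFDN tested, 1 was called. AFDN-202 (chromosome 9, 102279137 to 102392284) measured 0.00524, 1.89 and 0 FPKM in the calves and 3.55, 4.69 and 4.99 FPKM in the bulls. All bulls lay above all calves, and calf 2 lay far above the other two calves. AFDN-202 rose by 1.91 ± 0.45 on the log2 scale (adjusted p = 0.0135, and 1.66 without calf 3, adjusted p = 0.0244). The call was lost without bull 2 (adjusted p = 0.0505) and without bull 3 (adjusted p = 0.0531).

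In CADM1, a single transcript, CADM1-202, held 83.3% of the value in calf 3 and 94.9% to 97.2% in the others, and it was not called. CADM1-OT2 (chromosome 15, 26062378 to 26071036), an assembled transcript that overlaps the end of the gene, measured 0.194, 0.667 and 1.28 FPKM in the calves and 2.01, 2.42 and 2.05 FPKM in the bulls, and was called only without calf 3, at 1.16 (adjusted p = 0.00368). CDH2-201 carried nearly all of CDH2 and was called lower only without calf 3, at -1.56 (adjusted p = 0.000198). GJA1 had 1 transcript, and PARD6B 1 that passed the filter.

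The genes whose profile over the 6 libraries was most like that of each member were found by the Euclidean distance of log2(FPKM + 1), centred on the gene's own mean, among 13753 genes with a symbol. PARD3 lay closest to the RNA gene RF00020 (distance 0.14) and to PPP1R37 (0.14), the latter at 8.77, 8.11 and 11.4 FPKM in the calves and 32.2, 29.0 and 25.2 FPKM in the bulls. RF00020 measured 0.210, 0.111 and 0.499 FPKM in the calves and 3.58, 2.32 and 2.38 FPKM in the bulls. At such low levels the 1 added to each FPKM weighs heavily on the distance. CDH2 lay closest to S100A10 (0.16) and GLRX5 (0.18), and S100A10 measured 66.2, 72.1 and 26.6 FPKM in the calves and 21.8, 24.3 and 23.9 FPKM in the bulls.

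NECTIN3 lay closest to CPEB3 (0.18) and SPATA2 (0.19), NECTIN2 to MAP7D3 (0.10) and DNAJC25 (0.14), and NECTIN1 to HECW1 (0.15) and RAP1GAP (0.17). AFDN lay closest to GAS7 (0.13) and GCLM (0.16), CADM1 to UTP6 (0.12) and PCGF6 (0.22), and PARD6B to E2F1 (0.15) and SRSF3 (0.17). GJA1 had no near neighbour by comparison, with DYSF at 0.48 and SLC5A11 at 0.56. These distances include calf 3, and all genes share the same libraries.

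Further genes of the same junctions were taken from 6 lists with 74 names, of which 72 were found and 50 tested. With all libraries 6 of the 50 were called higher (12%) and 7 lower (14%), beside 35.7% and 9.61% of all genes, and without calf 3 12 were called higher (24%) and 8 lower (16%), beside 37.9% and 13.6%. All 13 genes called with all libraries were also called without calf 3. The median log2 fold change over the tested genes of the lists was -0.10 with all libraries and -0.09 without calf 3, beside 0.43 over all genes. In 34 entries of the 72 genes found, tested or not, calf 3 had the highest value of all libraries. The share of all genes was not counted, so no trait of the lists is read from it.

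Among nectin-like molecules and partners of afadin, 1 of the 8 genes tested was called higher and 1 lower. SSX2IP, an afadin-binding protein of junctions and centrosomes, measured 12.3, 10.7 and 8.17 FPKM in the calves and 70.7, 83.2 and 78.5 FPKM in the bulls. Every bull was far above every calf, and SSX2IP rose by 2.80 ± 0.19 on the log2 scale (adjusted p = 7.15e-05, and 2.65 without calf 3). CADM4, a nectin-like molecule, measured 7.76, 11.6 and 74.3 FPKM in the calves and 0.922, 1.90 and 2.44 FPKM in the bulls. All calves lay above all bulls, with calf 3 far above the rest, and CADM4 fell by 2.92 (SE 0.82, adjusted p = 0.0249), or by 1.97 without calf 3. The call of CADM4 was lost without any 1 of the bulls (adjusted p = 0.0639 to 0.0909). With scaling to TPM of all libraries it was lost too, at -2.85 (adjusted p = 0.0663).

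Of the 12 other cadherins tested, 3 were called higher and 2 lower with all libraries, and 6 and 2 without calf 3. CDH13, a cadherin held to the membrane by a lipid anchor, measured 2.31, 1.61 and 15.1 FPKM in the calves and 32.7, 29.3 and 30.4 FPKM in the bulls, and rose by 2.61 ± 0.69 (adjusted p = 0.0193, and 3.43 without calf 3). Leaving out any library other than calf 3 took CDH13 past the p threshold (0.0513 to 0.0691). CDH4 measured 0.453, 0.406 and 1.26 FPKM in the calves and 7.58, 7.59 and 8.73 FPKM in the bulls, and rose by 2.43 ± 0.24 (adjusted p = 0.000312, and 2.65 without calf 3). In both, the bulls were close together and above all calves. The third cadherin called higher, CDH15, which was named after its values were seen, rose by 1.39 ± 0.21 (adjusted p = 0.00182, and 1.19 without calf 3).

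CDH11, a cadherin of mesenchymal cells, measured 68.0, 40.5 and 25.7 FPKM in the calves and 15.6, 11.9 and 18.0 FPKM in the bulls, and fell by 1.41 on the log2 scale (SE 0.37, adjusted p = 0.0194), or by 1.75 without calf 3. CDH7 measured 2.22, 2.94 and 14.1 FPKM in the calves and 0.143, 0.135 and 0.181 FPKM in the bulls, and fell by 2.32 (SE 0.59, adjusted p = 0.0163), or by 1.63 without calf 3. In both, every calf lay above every bull, but calf 3 was the lowest calf for CDH11 and the highest for CDH7. The call of CDH11 was lost without calf 2, bull 1 or bull 2 (adjusted p = 0.0503 to 0.0756), and that of CDH7 without any 1 of the bulls (0.0567 to 0.059). With upper quartile scaling of all libraries CDH11 was not called either, at -1.31 (adjusted p = 0.0637).

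Of the 7 catenins, which link cadherins to actin, none was called higher and JUP was called lower with all libraries. Without calf 3, 2 were called higher, CTNNA3 (2.19, adjusted p = 0.000324) and CTNND2 (1.38, adjusted p = 0.00249), both named after their values were seen. JUP, or plakoglobin, measured 14.2, 15.1 and 22.6 FPKM in the calves and 2.81, 2.93 and 3.76 FPKM in the bulls. The calves lay well above the bulls, and JUP fell by 2.12 (SE 0.23, adjusted p = 0.000499, and by 1.92 without calf 3). At an unadjusted limma p below 0.05 with all libraries, 0 catenins were higher and 3 were lower. The share of all genes there was not counted, but it is at least 35.7% higher and 9.61% lower. No direction of the family is read from these counts. The other two that were lower, CTNNA1 and CTNNB1 (alpha- and beta-catenin), were named after their values were seen. They had log2 fold changes of -0.81 (adjusted p = 0.00408) and -0.83 (adjusted p = 0.0177), under the fold threshold.

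Among the 12 polarity genes tested, 1 was called in each direction with all libraries. Without calf 3 the called genes were 2 in each direction, with PRKCZ higher (1.45, adjusted p = 0.000305) and RAC1 lower (-1.13, adjusted p = 0.00471) in addition, and these 2 were named after their values were seen. PARD6A, a close relative of PARD6B, measured 0.991, 1.36 and 1.67 FPKM in the calves and 2.80, 5.16 and 6.07 FPKM in the bulls, and rose by 1.24 ± 0.28 (adjusted p = 0.0108, and 1.34 without calf 3). Under quantile normalization it was not called, at 0.56 (adjusted p = 0.139), or 0.64 without calf 3 (adjusted p = 0.0825). LLGL1, a basolateral polarity protein that opposes the PAR complex, measured 11.5, 10.7 and 35.1 FPKM in the calves and 2.87, 3.29 and 2.83 FPKM in the bulls, and fell by 2.12 (SE 0.46, adjusted p = 0.0087), or by 1.60 without calf 3. With scaling to TPM of all libraries LLGL1 was not called, at -2.0 (adjusted p = 0.0522). In neither did calves and bulls overlap.

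None of the 4 connexins tested beside GJA1 was called in either direction, with or without calf 3. At an unadjusted limma p below 0.05 there was 1, GJB5, with all libraries, and there were 2 connexins without calf 3. The share of all genes at that threshold was not counted. It is at least 35.7% higher and 9.61% lower with all libraries, and 37.9% and 13.6% without calf 3. GJC1, or connexin 45, measured 10.2, 10.7 and 1.71 FPKM in the calves and 8.28, 6.81 and 7.98 FPKM in the bulls. GJB1 and GJB6, connexins of glial cells that did not pass the filter, measured 17.1 and 10.05 FPKM in calf 3 and at most 0.316 FPKM in the 5 other libraries. These connexins were named after their values were seen.

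Of the 7 genes that link junctions to actin, 1 was called higher and 2 lower with all libraries. ESPN, or espin, an actin-bundling protein of the ectoplasmic specialization, measured 2.30, 5.82 and 1.96 FPKM in the calves and 36.3, 32.1 and 29.9 FPKM in the bulls, and rose by 3.05 ± 0.34 (adjusted p = 0.000567, and 2.83 without calf 3). ACTN4, an alpha-actinin, measured 26.0, 27.3 and 34.3 FPKM in the calves and 10.2, 9.05 and 13.3 FPKM in the bulls, and fell by 1.35 (SE 0.20, adjusted p = 0.00187), or by 1.24 without calf 3. PLS3, another actin bundler, measured 30.6, 50.1 and 15.4 FPKM in the calves and 11.0, 12.6 and 11.3 FPKM in the bulls, and fell by 1.24 (SE 0.41, adjusted p = 0.0431), or by 1.67 without calf 3. The call of PLS3 was lost without any library other than calf 3 (adjusted p = 0.0782 to 0.124).

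**Figure D5:**
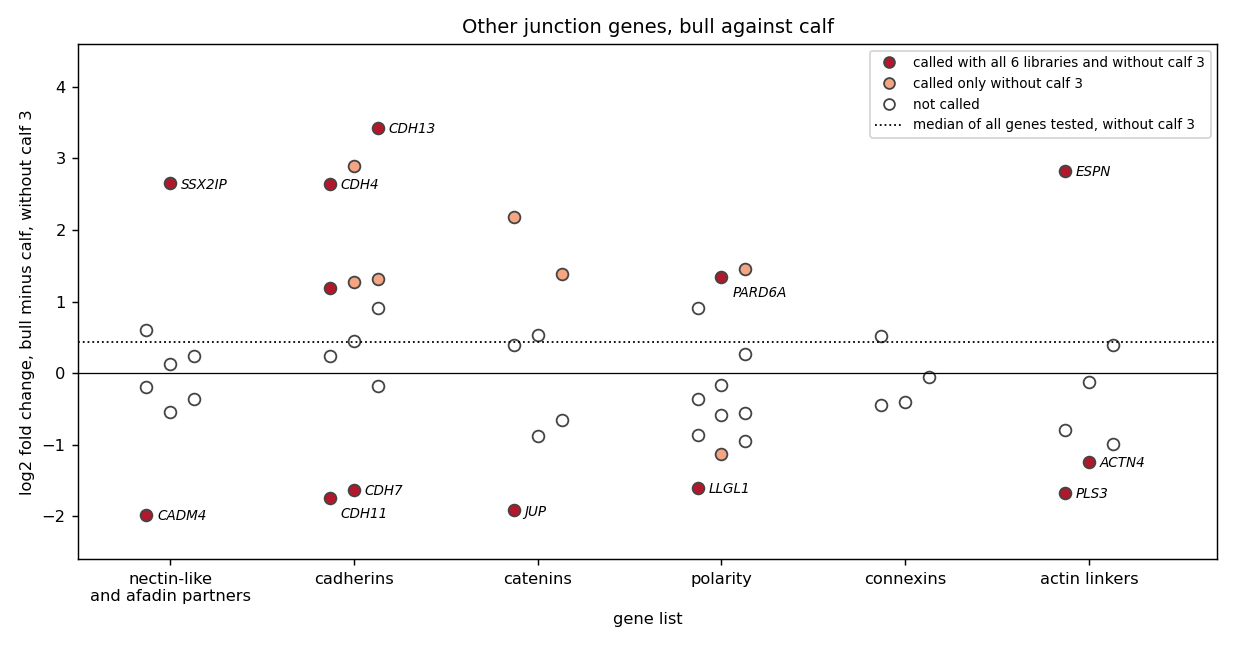
Log2 fold change (bull minus calf, without calf 3) of the 50 other junction genes tested, by list, with the 12 genes named by rule labelled. Dark points were called with all 6 libraries and without calf 3, light points only without calf 3, open points in neither, and the dotted line is the median of all genes at 0.43. CDH13 (3.43), ESPN (2.83), SSX2IP (2.65) and CDH4 (2.65) are the highest of the labelled genes, and CADM4 (-1.97) and JUP (-1.92) the lowest.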

How the data were processed

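The FPKM values that the authors deposited cover genes and transcripts in separate tables, without counts. Per the Methods, reads matching ribosomal RNA were removed with Bowtie2, the others were mapped with TopHat2 to UMD 3.1.1 and transcripts were assembled with StringTie. The tool that made the FPKM values of genes is not given in the sources used here. The positions printed are those of the table: 99.4% of the 16434 symbols matched to RefSeq ARS-UCD2.0 overlapped their locus there, the 10 members included, so they were read as positions on an ARS-UCD assembly. Counts could not be recovered from the FPKM values, since at most 4.22% of low genes lay near a common ratio (tolerance 0.005 in natural log).

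Samples were grouped by their titles. Values were taken as log2(FPKM + 1), which understates the change of low genes. Features at 1 FPKM or more in 3 or more libraries were kept, and the 2 groups were fitted with limma 3.58.1 (R 4.3.3), using an empirical Bayes trend. The two-sided p-values were adjusted for all features of the table (Benjamini-Hochberg), and a feature was called at an adjusted p below 0.05 with a fold change of at least 2. The procedure was tested on simulated data whose spread came from the bulls, calf 1 and calf 2, so the spread that calf 3 adds was not covered. With 200 features changed by 2 on the log2 scale, 176 genes and 137 transcripts were recovered, with 4 and 2 false calls. Within-library ratios were compared by exact permutation. The p-values measure the spread between these animals. The plots were made in matplotlib 3.10.9 (Python 3.11.15).

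The members and lists were chosen with earlier results of these data known, including that calf 3 stood apart. Named genes were the 10 members, the 2 genes that rose most and the 2 that fell most per list among those called without overlap, and the 2 nearest profiles per member. Of the names listed, PALS1 and GJD3 were not found, and CDH9 had 2 entries. In all, 16 alternatives were planned and 5 were added after seeing the data. Values of some single genes of the lists are not reported here.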

Additional observations from a re-analysis of the deposited data

How the results depend on the processing

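The number of adhesion members called, 1 with all libraries (PARD3), was 2 with scaling to TPM (PARD3 and CADM1), 3 with quantile normalization (NECTIN1, NECTIN2 and CDH2, all lower, 0 higher) and 3 with array weights (NECTIN3 and PARD3 higher, CDH2 lower). Leaving out 1 library at a time gave 1 to 3 members in all, 1 to 2 higher and 0 to 1 lower. The gain to 3 came without calf 3, and without calf 2 CADM1 was called beside PARD3. The alternatives chosen after seeing the data, without calf 3, gave 4 with TPM (3 higher, 1 lower), 3 with upper quartile scaling (2 higher, 1 lower), 2 with quantile normalization (0 higher, 2 lower) and 2 with Ensembl transcripts only (1 lower). In the last of these, 3814 of 13737 genes were called higher and 2396 lower. Of all 18115 genes, 6474 were called higher and 1741 lower with all libraries. The counts were 6952 and 1151 with TPM, 3827 and 4538 with quantile normalization, and 6867 and 2470 with array weights. Leaving out 1 library gave 6034 to 6859 higher and 1218 to 2466 lower. Without calf 3 they were 8391 and 1457 with TPM, 6755 and 2678 with upper quartile scaling, and 4062 and 5275 with quantile normalization. The member counts are not read as a trait of these genes. The causes were not tested.

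Of the junction lists, 13 genes were called (6 higher, 7 lower). Quantile normalization gave 20 (16 lower) and array weights 20 (12 higher). Without calf 3, TPM gave 21 (15 higher), upper quartile scaling 22 (12 higher) and quantile normalization 23 (17 lower). Leaving out 1 library gave 8 to 20 in all, 5 to 12 higher and 3 to 8 lower, with 20 without calf 3, 8 without bull 1, and 3 lower without bull 1 and 4 lower without bull 2 or bull 3. The counts of all genes given above for the same settings apply here too. Transcripts of the members, 7 in all, were 4 with a filter of 5 FPKM and 11 without calf 3 with upper quartile scaling, and 5 to 10 when 1 library was left out. The share of all transcripts under these settings was not counted.

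The median of all genes was 0.43, and 0.63 with TPM, 0.51 with upper quartile scaling and -0.26 with quantile normalization. Directions turned for AFDN (-0.37 with quantile normalization, -0.07 to 0.38 when 1 library was left out, the lowest without calf 1, and -0.15 without calf 3 with quantile normalization), NECTIN1 (0.02 with array weights, and -0.99 to 0.05 when 1 library was left out, the highest without calf 3, where it was 0.38 with TPM and 0.02 with upper quartile scaling), NECTIN3 with Ensembl transcripts only (-1.30, and -0.59 without calf 3), CADM1 (-0.29) and PARD6B (-0.23) without calf 3 with quantile normalization, and GJA1 without calf 3 with TPM (0.47). The difference between groups in the log2 ratio of PARD6B to PARD3 ranged from -1.34 without calf 3 to 0.01 without calf 2. With Ensembl transcripts only, the differences turned from -0.97 to 1.02 for NECTIN2 over NECTIN3 and from -1.27 to 0.53 for NECTIN1 over NECTIN3 (0.42 without calf 3). The pseudocounts of 0.1 and 0.5 and the fit without trend or filter left the count of members at 1.

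Calves and bulls share replicate numbers only as names. Deviations of same-numbered libraries correlated at 0.0277, 0.0246 and 0.0341, and each calf correlated best with its own number, a hint only. With the replicate block 1 member was called, again PARD3, and 6437 genes were called higher and 1691 lower, against 6474 and 1741. Without counts, the number of fragments behind low values such as CDH1 is not known exactly.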
